A study of Mus musculus with 2 samples.

Results

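The regions described here are exonic peaks away from start sites, on chromosomes 1 to 19. They are ATAC-seq peaks whose strongest summit fell in an exon of a protein-coding gene, more than 1 kb from every transcription start used. The starts used were those of protein-coding genes in the basic GENCODE annotation. ATAC-seq marks DNA that a transposase can reach, and a peak is an interval where cut sites pile up over the local background. By this rule 4463 of 127423 peaks were exonic in the vehicle library and 6139 of 179414 in the TAMo library, which makes 10602 of 306837 peaks in all. Membership was set by where the most significant summit of each interval (highest −log10 q) fell in the GENCODE annotation of mm10. The comparison of the libraries is no part of the rule. Of the members, 677 in vehicle and 774 in TAMo lay within 1 kb of a protein-coding start that only the fuller, comprehensive annotation lists.

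The study holds 2 libraries, 1 per group, from OT-I CD8+ T cells labelled WT. OT-I cells carry a transgenic T cell receptor for the ovalbumin peptide OVA257-264, and both cultures received that peptide for 48 hours. In the vehicle culture the T cells were kept with vehicle; in the TAMo culture they were kept with TAMos, which the design text defines as splenic CD11b+Ly6G-Ly6Chigh cells of mice that carried Lewis lung carcinoma (LLC). About 50000 viable CD8+ T cells were sorted back from each culture, so both libraries come from peptide-stimulated T cells and neither shows resting cells. With 1 library per group no difference below has a replicate check, no p-value is given, and every interval covers counting error only.

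An exon is the part of a gene kept in the spliced transcript, and its sequence is read first for the protein or for the control of the RNA. The same bases can also hold binding sites for transcription factors, so that an enhancer or an insulator can lie inside a coding exon or a 3′ UTR, the untranslated end of a transcript. Last exons are long and hold most of the 3′ UTR, while internal exons are short and mostly coding. In activated CD8+ T cells open chromatin away from start sites is known for sites of AP-1, the Fos and Jun family that T cell receptor signals induce, and of RUNX, ETS and T-box factors. CTCF binds insulators and loop anchors in most cell types.

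Sequence at the summits was read in windows of 101 bp, 50 bp on either side, that lay wholly inside 1 exon, which was possible for 8216 of the 10602 members. In vehicle it was possible for 776 of 1697 internal-exon and 2457 of 2551 last-exon members. In TAMo the numbers were 987 of 2206 and 3573 of 3704, so shares pooled over all windows weigh last exons more than the members do. The 4 strongest coding windows of the vehicle library with a match to the CTCF consensus are printed first. They were taken only from windows that also had an exonic peak in the TAMo list, so they cannot show how often coverage is similar. They lie in Flot1 at chr17:35829866-35829966 (exon 9, plus strand), in Klf1 at chr8:84903159-84903259 (exon 2, plus strand), in 1700020L24Rik at chr11:83440451-83440551 (exon 2, plus strand) and in Synpo2l at chr14:20661100-20661200 (exon 4, minus strand), all in mm10. Each is written 5′ to 3′ on the gene's strand, with the consensus match in capitals.
Flot1: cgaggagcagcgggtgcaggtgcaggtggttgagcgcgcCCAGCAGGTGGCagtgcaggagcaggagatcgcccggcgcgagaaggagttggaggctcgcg
Klf1: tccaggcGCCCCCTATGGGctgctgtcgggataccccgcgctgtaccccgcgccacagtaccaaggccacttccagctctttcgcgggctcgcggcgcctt
1700020L24Rik: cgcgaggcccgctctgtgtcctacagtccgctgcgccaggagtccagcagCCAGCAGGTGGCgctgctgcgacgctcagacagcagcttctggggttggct
Synpo2l: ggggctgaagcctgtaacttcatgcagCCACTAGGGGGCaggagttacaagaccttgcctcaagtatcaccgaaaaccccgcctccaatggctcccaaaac

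Summit coverage at these places was 497 reads in vehicle and 605 in TAMo for Flot1, which encodes a membrane raft protein. For Klf1, an erythroid transcription factor, it was 522 and 497 reads. The uncharacterized gene 1700020L24Rik had 495 and 644 reads, and Synpo2l, which encodes an actin-associated protein of muscle, had 475 and 528. After scaling to the background of each library the log2 ratios of TAMo to vehicle ran from -0.37 in Klf1 (95% exact binomial interval -0.55 to -0.19) to 0.08 in 1700020L24Rik (-0.09 to 0.25). The windows in Flot1 and 1700020L24Rik lay 170 and 370 bp from a start that only the fuller, comprehensive annotation lists.

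The next set shows coding windows that held the AP-1 motif TGANTCA and had the largest TAMo to vehicle ratios among those with at least 50 reads in both libraries. They lie in Nsun2 at chr13:69629589-69629689 (exon 12, plus strand), Grhl2 at chr15:37328276-37328376 (exon 9, plus strand), Cd180 at chr13:102706027-102706127 (exon 3, plus strand) and Urad at chr5:147315332-147315432 (exon 2, minus strand). A further set holds the 3 strongest such windows called in the TAMo list only: Lmtk2 at chr5:144175724-144175824 (exon 11, plus strand), Sipa1l1 at chr12:82341322-82341422 (exon 4, plus strand) and Macf1 at chr4:123475000-123475100 (exon 36, minus strand). Capitals mark every match to the motif, which reads the same on both strands.
Nsun2: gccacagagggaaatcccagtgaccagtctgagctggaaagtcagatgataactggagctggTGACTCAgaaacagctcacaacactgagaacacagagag
Grhl2: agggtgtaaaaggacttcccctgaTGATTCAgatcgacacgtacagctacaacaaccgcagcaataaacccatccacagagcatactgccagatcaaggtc
Cd180: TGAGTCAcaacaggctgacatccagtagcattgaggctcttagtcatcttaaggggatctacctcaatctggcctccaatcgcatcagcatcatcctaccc
Urad: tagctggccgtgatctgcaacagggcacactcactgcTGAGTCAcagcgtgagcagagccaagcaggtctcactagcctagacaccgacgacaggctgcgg
Lmtk2: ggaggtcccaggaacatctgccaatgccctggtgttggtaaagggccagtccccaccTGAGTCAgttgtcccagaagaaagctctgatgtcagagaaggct
Sipa1l1: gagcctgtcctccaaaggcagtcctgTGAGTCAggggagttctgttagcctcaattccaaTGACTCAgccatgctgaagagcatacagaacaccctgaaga
Macf1: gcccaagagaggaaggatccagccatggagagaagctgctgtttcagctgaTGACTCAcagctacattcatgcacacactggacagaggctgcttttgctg

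Coverage in the set chosen by ratio was 66 reads in vehicle and 626 in TAMo for Nsun2, an RNA cytosine methyltransferase, and 51 and 426 for Grhl2, an epithelial transcription factor. Cd180, a Toll-like receptor homologue of B cells and myeloid cells, had 94 and 577 reads, and Urad, an enzyme of urate breakdown, had 114 and 661. The TAMo value was the higher in all 4, as the choice of the set requires, with log2 ratios from 2.24 (1.95 to 2.53) in Urad to 2.95 (2.58 to 3.33) in Nsun2. The windows called in TAMo only had 230 reads in Lmtk2, 127 in Sipa1l1 and 116 in Macf1, and the Sipa1l1 window held 2 matches and lay 895 bp from a start of the comprehensive annotation. All printed windows are wholly coding and share no run of 31 bases with a transcript from another place.

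Exonic peaks made up 3.50% of the vehicle list (95% Wilson interval 3.40 to 3.60) and 3.42% of the TAMo list (3.34 to 3.51). Exon sequence more than 1 kb from a start site spans 60.1 Mb, and peaks stood in it at 74.3 per Mb in vehicle and 102 per Mb in TAMo. That density was above the density in introns, 61.2 and 90.5 per Mb, and above that between genes, 32.8 and 48.4 per Mb. It was far below the density within 1 kb of a start site, 417 and 453 per Mb.

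The TAMo list held 1.38 times as many exonic peaks as the vehicle list, against 1.48 times for intronic and for intergenic peaks and 1.09 times for peaks near a start. The 2 lists differ in depth, with a modal background of 4.71 reads in vehicle and 5.80 in TAMo, and the part that depth plays in the number of peaks was not tested. Exonic peaks had a median summit coverage of 60 reads in vehicle and 74 in TAMo, close to the intronic medians of 59 and 75. Their share of all peaks was highest among weak peaks: with each list cut into 10 equal classes by q-value, it went from 4.47% in the weakest class to 1.62% in the strongest in vehicle, and from 3.85% to 1.95% in TAMo.

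**Figure D1:**
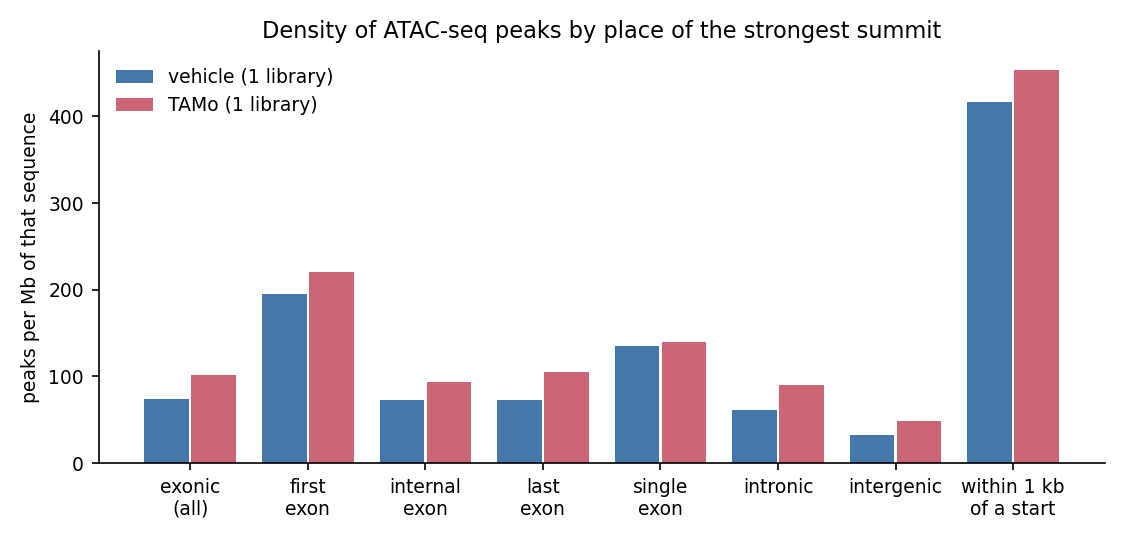
Peaks per Mb of each kind of sequence (vertical axis) by the place of the strongest summit, with 1 bar per library. Exonic sequence away from start sites had 74.3 peaks per Mb in vehicle and 102 in TAMo, between the intronic density and the 417 and 453 per Mb within 1 kb of a start.

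Last exons held the most members. In vehicle 2551 members (57.2%) lay in last exons, 1697 (38.0%) in internal exons, 143 in genes of a single exon and 72 in first exons, and in TAMo the numbers were 3704 (60.3%), 2206 (35.9%), 148 and 81. Per Mb, internal and last exons were equally dense in vehicle, at 72.4 and 72.5, and in TAMo they stood at 94.1 and 105. First exons reached 196 and 220 per Mb on only 0.368 Mb of sequence.

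By part of the transcript, coding sequence held 2331 vehicle members (52.2%) and 2963 TAMo members (48.3%). The 3′ UTR held 2031 (45.5%) and 3059 (49.8%), and the 5′ UTR held 101 and 117. TAMo thus had 1.51 times as many members as vehicle in 3′ UTRs and 1.27 times as many in coding sequence.

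Internal exons with a member had a median length of 174 bp in vehicle, and the peak covered the whole exon in 48.2% of them (53.7% in TAMo). Only 15.8% of these peaks lay wholly inside the exon (15.4% in TAMo), and both edges fell within 10 bp of the exon's edges in 14 vehicle and 13 TAMo members. In last exons, 84.0% of vehicle members and 84.8% of TAMo members lay wholly inside the exon, with a median summit position at 0.48 and 0.49 of the exon's length. Near the limit of 1 kb, vehicle members 1001 to 1250 bp from a start numbered 167 with a median of 100 reads, and exonic summits 751 to 1000 bp away, which are not members, numbered 256 with a median of 95 reads. In TAMo the same bands held 181 members with a median of 119 reads and 286 summits with a median of 126.

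Some members lay near starts that the rule did not use. Of internal-exon members, 29.1% in vehicle (26.9 to 31.3) and 26.0% in TAMo (24.2 to 27.9) were within 1 kb of a start of a protein-coding gene in the comprehensive annotation. The same held for 19.6% of all 101 bp tiles of internal exon sequence away from basic starts. In last exons the shares were 5.76% and 4.51%, against 2.98% of tiles. TAMo members within 1 kb of any start of the comprehensive annotation, coding or non-coding, were shared with vehicle in 70.4% of cases. Those farther away were shared in 57.7%. Median coverage was 91 reads near such a start and 71 reads farther away. For vehicle members the shares were close, 86.3% and 85.1%, with medians of 69 and 58 reads. The part of coverage in these shares was not tested.

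Strength is ranked by the deposited q-value. The strongest last-exon member of the vehicle list lay in Lars2, which encodes the mitochondrial leucyl-tRNA synthetase, at chr9:123461722-123462259 in the 3′ UTR. Its summit held 1649 reads in vehicle and 1054 in TAMo, a log2 ratio of -0.95 (-1.06 to -0.83) and so lower in TAMo. The window at this summit shares runs of 31 bases with the transcript Gm15564 from another place, so its reads are uncertain between these places. Of all windows read, 121 of 3436 in vehicle (3.52%) and 184 of 4780 in TAMo (3.85%) held such a shared run, and their median coverage was 52 and 58.5 reads against 61 and 75 for the others.

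Hs2st1, a heparan sulfate 2-O-sulfotransferase, had 874 and 1149 reads in its last exon (log2 0.09, -0.03 to 0.22). Mtmr6, a lipid phosphatase of the myotubularin family, had 262 and 1043 (log2 1.69), and ranked among the 4 strongest last-exon members in the TAMo list alone. In the last exon of Smg1, a kinase of nonsense-mediated decay, the vehicle peak had 939 reads and lay 239 bp from a start of the comprehensive annotation.

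Among internal exons the strongest vehicle members lay in coding sequence of Zfyve28 (837 reads in vehicle, 1318 in TAMo), Capn7 (816 and 1237), Rtn3 (816 and 990) and Prdm2 (739 and 924). Zfyve28 encodes a FYVE-domain protein, Capn7 a calpain-type protease, Rtn3 a reticulon of the endoplasmic reticulum and Prdm2 a PR-domain zinc finger protein. Their log2 ratios were 0.35, 0.30, -0.02 and 0.02. Tff1, a secreted trefoil peptide, was also among the 4 strongest in TAMo, with 1224 reads against 419 in vehicle (a log2 interval of 1.09 to 1.41). So was Podnl1, a leucine-rich repeat protein, with 1074 reads, 500 bp from a start of the comprehensive annotation.

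The strongest first-exon members sat in the 5′ UTR of Tmbim1 (794 and 1281 reads), Pdcl3 (626 and 1081) and Asb6 (449 and 570). Those 3 vehicle summits lay 79, 162 and 10 bp from a start of the comprehensive annotation, so that they are first-exon members far from a start only in the basic annotation. Myo15b, an unconventional myosin, came next in vehicle (352 and 442 reads), and Dlx1, a homeobox gene, in TAMo (302 and 616). The Dlx1 summit in TAMo lay 120 bp from a start of the comprehensive annotation. Among genes of a single exon the small GTPase gene Rap2b had 998 and 1322 reads, and Sf3b5, a subunit of the splicing factor SF3B, had 628 and 852. The TAMo list added Map10, a microtubule-associated protein, with 337 and 675 reads, and Sft2d3, a transport protein, ranked first in both lists with 784 and 1023.

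Members were spread thinly over genes. They fell in 3343 genes in vehicle and 4406 in TAMo, 4904 of 20780 protein-coding gene symbols in either (23.6%) and 2845 in both, and 3434 genes held a single region after both lists were joined. Cmya5, a large muscle protein, held the most, 8 regions in internal exons. Of these, 6 stood next to each other in exon 2, and 5 were called in both lists: from chr13:93092992-93093269 to chr13:93095239-93096146 in vehicle they had 183, 215, 352, 413 and 318 reads, and 277, 268, 349, 349 and 309 in TAMo. Their log2 ratios differed along the exon, from 0.30 (0.02 to 0.58) at the lowest coordinate to -0.54 (-0.75 to -0.33) at the region with the highest vehicle coverage. The signs depend on the scaling, as the median over all shared regions was 0.28. The vehicle summits with 215, 352, 413 and 318 reads lay 834, 487, 92 and 762 bp from a start of a non-coding gene.

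Sptbn4, a spectrin, held 7 regions, and 10 genes held 6, of which Akap13, Camkk2, Ccdc162 and D1Ertd622e come first by name. Akap13, an anchoring protein for protein kinase A, had 712 and 926 reads in exon 7 (log2 0.08, 346 bp from a start of the comprehensive annotation) and 541 and 381 in exon 14 (log2 -0.81). Camkk2, a calcium-dependent kinase that activates AMPK, had 4 shared regions with log2 ratios from 0.09 to 1.56. The region at 1.56 lay in exon 12, 8 bp from a start of the comprehensive annotation. Ratios thus differed between the regions of Akap13 and between those of Camkk2.

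Sharing between the lists was high for vehicle members and lower for TAMo members. A TAMo peak overlapped 3807 of the 4463 vehicle members (85.3%, 84.2 to 86.3), close to 86.2% of intronic and 86.3% of intergenic peaks. A vehicle peak overlapped 3667 of the 6139 TAMo members (59.7%, 58.5 to 61.0), against 56.8% of both intronic and intergenic peaks. When the intronic and intergenic TAMo peaks were weighted to the strengths of the exonic ones, their shares were 55.5% and 56.2%, again below the exonic share. A peak without a partner is a missing call, which need not be closed chromatin.

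Within the exonic set, the share of TAMo members with a vehicle partner was 63.4% in coding sequence (61.6 to 65.1) and 55.7% in 3′ UTRs (53.9 to 57.5). By class it was 71.6% in first exons, 61.7% in internal, 58.3% in last and 60.8% in single exons. For vehicle members the order was not the same: 83.8% of internal-exon and 86.6% of last-exon members had a TAMo partner.

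The strongest vehicle members without a TAMo partner lay in Dusp16, a phosphatase of MAP kinases (208 reads), Sox12 (234), Lyl1 (265), D430041D05Rik (136), Cand1, a regulator of cullin ligases (94), and Ddit4, an inhibitor of mTORC1 signalling (291). In the TAMo list they lay in Sun1, a protein of the nuclear envelope (584 reads), Zc2hc1b (426), Sec31b, a COPII coat component (399), C2cd3, a centriole protein (544), Unc13a, a factor of vesicle priming (607), and Usp32, a deubiquitinase (274). Of these 12 genes, 4 also held exonic regions called in both lists. Those had 595 and 692 reads in Dusp16 and 476 and 623 in Unc13a, each in the same exon as the peak without a partner. In D430041D05Rik they had 150 and 294 reads in the same last exon (log2 0.67, 0.38 to 0.96) and 112 and 237 in exon 13 (log2 0.78, 0.45 to 1.12), and in C2cd3 195 and 321 reads in exon 5, far from the peak in exon 25.

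At places called in both lists the coverage itself can be compared. Coverage at each summit was recovered from the deposited fold and p and divided by the background of its library, and log2 of TAMo over vehicle is given below. For 3340 exonic regions the median was 0.26 (quartiles -0.15 and 0.80). Coverage was at least 2-fold higher in TAMo at 649 of them (19.4%, 18.1 to 20.8) and at least 2-fold lower at 96 (2.87%, 2.36 to 3.50). Among all 86105 shared regions more than 1 kb from a start, 25.5% were 2-fold or more higher and 3.64% were 2-fold or more lower. The exonic shares were thus below the background in both directions. Both counts depend on the setting: centred on the median of all shared regions they were 457 and 201, and among the 2086 exonic regions with at least 50 reads in both libraries they were 271 (13.0%) and 55 (2.64%), against 17.6% and 3.37% of all such regions more than 1 kb from a start. In bulk libraries a region open in fewer cells and a region less open in each cell cannot be told apart.

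Intronic regions had a median of 0.41 with 27.0% at least 2-fold higher, intergenic regions 0.35 with 24.4%, and regions near a start 0.05 with 4.91%. Exonic regions therefore stood between those near a start and the others. The exonic median was below the intronic and the intergenic one in each of 5 equal classes of mean coverage: in class 3 it was 0.26, against 0.56 and 0.52. Over all shared regions, those near starts included, the median was 0.28, and the exonic median set against that shift was -0.02.

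**Figure D2:**
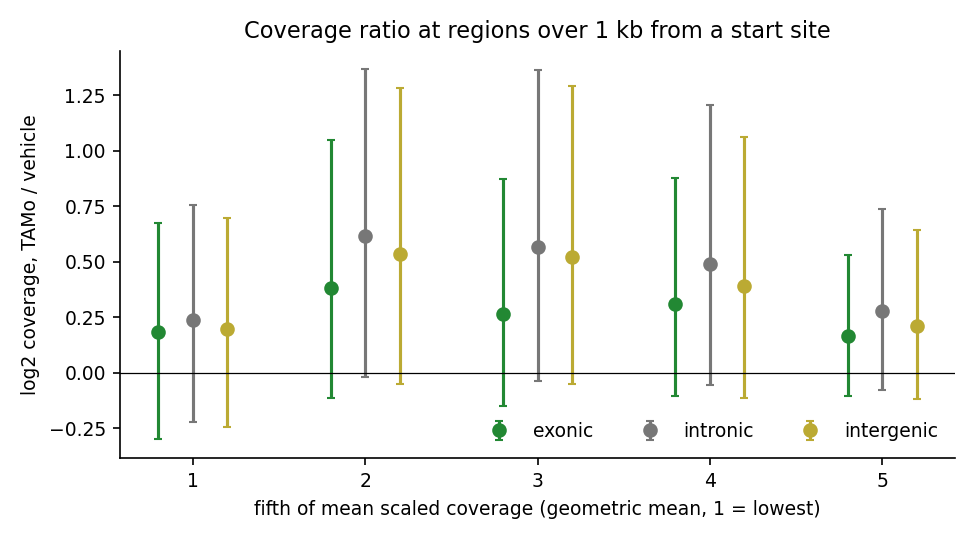
Log2 of TAMo over vehicle summit coverage, each scaled to its background (vertical axis), in 5 equal classes of mean scaled coverage (horizontal axis). Points are medians over regions and bars span the quartiles over regions, not replicates; the exonic median is the lowest of the 3 in all 5 classes, 0.26 against 0.56 and 0.52 in class 3.

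Exon classes differed little. The median was 0.19 in first exons (51 regions), 0.23 in internal (1153), 0.27 in last (2048) and 0.32 in single exons (86). By part of the transcript it was 0.21 in coding sequence, with 16.7% at least 2-fold higher (15.0 to 18.7), and 0.31 in 3′ UTRs, with 22.7% (20.7 to 24.8). Within last exons, coding sequence had a median of 0.19 and the 3′ UTR 0.31, so the difference between parts was also present inside 1 exon class. Regions within 1 kb of any start of the comprehensive annotation, of a coding or a non-coding gene, had a median of 0.15, and the others 0.28.

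The largest ratios among regions with at least 50 reads in both lists belonged to 2810006K23Rik (56 reads in vehicle, 807 in TAMo), Sgsh, a lysosomal sulfatase (96 and 973), Zfp51, a zinc finger gene (65 and 651), Tgfbr2, the type II receptor for TGF-beta (75 and 731), Nsun2 (66 and 626, printed above) and Abcg1, a sterol transporter (54 and 511). The log2 ratio was 3.55 (3.16 to 3.97) in 2810006K23Rik, 3.04 in Sgsh, 3.02 in Zfp51, 2.98 (2.64 to 3.35) in Tgfbr2 and 2.94 in Abcg1. Of these 6 only Zfp51 and Nsun2 were in coding sequence; the Tgfbr2 peak lay in the 3′ UTR at chr9:116087304-116087485. Both Zfp51 windows share runs of 31 bases with other genes, the TAMo window with Zfp52 and the vehicle window with 2610021A01Rik and Gm44150, so both sides of that ratio are uncertain.

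The lowest ratios belonged to St8sia4, a polysialyltransferase (283 reads in vehicle, 76 in TAMo), Spsb1, an adaptor of a ubiquitin ligase (234 and 72), Zbtb20, a zinc finger repressor (176 and 55), Rtkn2 (480 and 155), Hist1h2ac, a histone H2A gene (453 and 151), and Tmprss7, a membrane serine protease (273 and 97). Their log2 ratios ran from -2.20 (-2.58 to -1.83) in St8sia4 to -1.79 (-2.14 to -1.45) in Tmprss7. Rtkn2 and Tmprss7 lay in internal coding exons and the others in 3′ UTRs. The Hist1h2ac summit in vehicle lay 313 bp from a start of a non-coding gene. Beyond 4-fold, 166 exonic regions were higher in TAMo and 5 were lower.

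**Figure D3:**
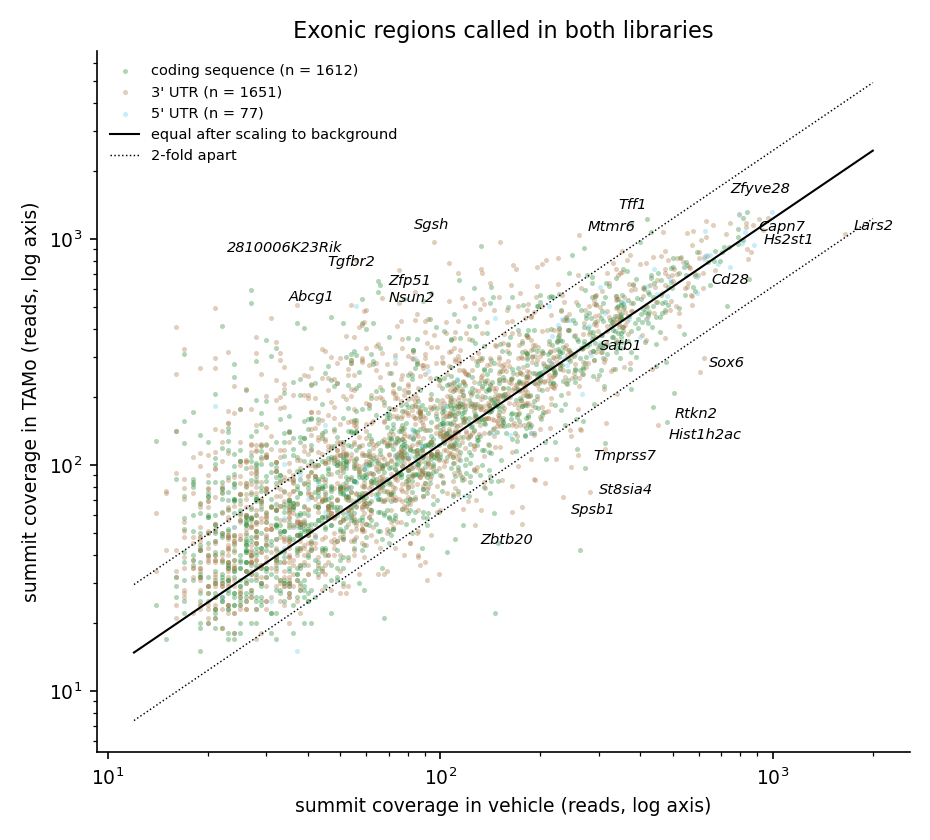
Summit coverage in reads at exonic regions called in both libraries, vehicle on the horizontal and TAMo on the vertical log axis, 1 point per region, coloured by the part of the transcript at the vehicle summit. The solid line marks equal coverage after scaling and the dotted lines a 2-fold difference; 649 regions lie at or above the upper dotted line and 96 at or below the lower.

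Of 20 genes of the T cell receptor complex and T cell identity, 10 held an exonic peak, against 23.6% of all genes. None of the 7 regions called in both lists was 2-fold apart, and their median log2 ratio was 0.05. Over all shared exonic regions 19.4% were 2-fold or more higher and 2.87% lower. These shares and the 23.6% of genes apply beside each gene list below as well. The shares of genes were not scaled to the length of exon sequence more than 1 kb from a start, outside which no member can lie. A list with few shared regions can lack a 2-fold region by its size alone. In Cd3d, a chain of CD3, the last exon had 934 and 1101 reads (log2 -0.06, -0.19 to 0.06) and exon 3 had 213 and 271; both lie within 1 kb of starts in the comprehensive annotation. In Cd3e, another chain, the last exon had 114 and 264 (log2 0.91, 0.59 to 1.24), and its vehicle summit lay 80 bp from a start of a non-coding gene. Cd28, the costimulatory receptor, had 617 and 605 reads in its 3′ UTR (log2 -0.33, -0.49 to -0.16).

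Effector genes held members in 3 of 18 cases, against 23.6% of all genes, with 4 shared regions at a median of 0.34. None was 2-fold apart, beside 19.4% higher and 2.87% lower among all shared exonic regions. Of these, 3 lay in the last exon of Il2ra, the high-affinity chain of the IL-2 receptor, with 323 and 638 reads (log2 0.68, 0.49 to 0.88), 133 and 237 (0.53, 0.22 to 0.85) and 514 and 703 (0.15, -0.01 to 0.32). Another peak of that exon, with 151 reads, was called in vehicle only. Prdm1, which encodes Blimp-1, a driver of effector differentiation, had 304 and 317 reads in coding sequence of its last exon (log2 -0.24, -0.47 to -0.01). Gzmc, a granzyme, had a weak peak of 31 reads in TAMo only.

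Of 15 inhibitory and exhaustion genes 4 held a member, near the share of all genes (23.6%). The 1 shared region lay in exon 3 of Lag3, an inhibitory receptor, with 199 and 237 reads (log2 -0.05, -0.33 to 0.23), 117 bp from a start of the comprehensive annotation. The other peaks were called in TAMo only: in Havcr2, which encodes TIM-3, with 75 and 34 reads, Nr4a3, a nuclear receptor induced by receptor signals, with 41, and Cd244a, a receptor of the SLAM family, with 25. The exonic median in TAMo was 74 reads, so these are weak or middling peaks. Of all TAMo members, 59.7% had a vehicle partner.

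Naive and memory genes were the list with the highest share of genes holding a member, 9 of 13, against 23.6% of all genes. Their 11 shared regions had a median of 0.11. Of these, 1 was 2-fold or more higher and none lower, beside 19.4% and 2.87% of all shared exonic regions. The higher one lay in the last exon of Satb1, a chromatin organizer, with 42 and 197 reads (log2 1.93, 1.44 to 2.45), while its long first exon had 285 and 308 (-0.19, -0.43 to 0.05). Bach2, a repressor that holds back effector programs, had 187 and 454 reads in its 3′ UTR (0.98, 0.73 to 1.23), and Ccr7, a homing receptor of lymph nodes, had 400 and 772 (0.65, 0.47 to 0.83). No housekeeping gene of 11 held a member.

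Lists outside T cell biology were counted in the same way. Members lay in 129 of 458 zinc finger genes, against 23.6% of all genes. Their 74 shared regions had a median of 0.28, with 26 2-fold or more higher and 2 lower, beside 19.4% and 2.87% of all shared exonic regions. Zbtb46, a zinc finger gene known from dendritic cells, had 3 regions in 3′ UTRs with 169 and 735, 70 and 255, and 34 and 218 reads, all higher in TAMo (log2 1.82, 1.56 and 2.38). In Zfp771 and Zbtb21 the strongest peaks were of similar height, 585 and 587 reads and 366 and 457.

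Developmental transcription factors held members in 42 of 111 cases, against 23.6% of all genes, with 33 shared regions at a median of 0.34. Of these, 4 were 2-fold or more higher and 2 lower, beside 19.4% and 2.87% of all shared exonic regions. Both lower ones lay in the last exon of Sox6, with 606 and 259 reads in the 3′ UTR (log2 -1.53, -1.74 to -1.31) and 268 and 157 in coding sequence (-1.07, -1.37 to -0.78). Sox5, of the same family, had 114 and 282 (1.01, 0.69 to 1.33), and Lhx2, a LIM homeobox gene, had 234 and 333 (0.21, -0.04 to 0.46).

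Olfactory and vomeronasal receptor genes held members in 52 of 1455 cases, against 23.6% of all genes. How much exon sequence these genes have more than 1 kb from a start was not measured, so the count does not show how open they are. Their 20 shared regions had a median of 0.79, with 7 2-fold or more higher and 2 lower, beside the same 19.4% and 2.87%. The strongest were Olfr432 (437 and 832 reads), Olfr433 (195 and 751), Olfr522 (56 and 505) and Olfr9 (212 and 555). The Olfr9 pair joins a coding summit in vehicle to a 3′ UTR summit in TAMo, and its vehicle window shares a run of 31 bases with Olfr763.

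The next lists stand beside 23.6% of all genes with a member, and 19.4% of shared exonic regions 2-fold or more higher and 2.87% lower. Collagen genes held members in 9 of 43 cases, among them Col17a1, Col14a1, Col23a1 and Col12a1, with 3 shared regions and none 2-fold apart. Clustered protocadherins held them in 5 of 56, Pcdhga12, Pcdhgc3, Pcdhga8 and Pcdhga6 among them, with 4 shared regions and none 2-fold apart. Histone genes held them in 4 of 67, with Hist1h1d, Hist1h2be and Hist2h3c1 beside Hist1h2ac. Their 2 shared regions had a median log2 ratio of -1.03, and 1 of them, in Hist1h2ac, was 2-fold or more lower. The symbols that start with Rpl or Rps gave 13 of 92 genes, but these take in the Rps6k kinases, which are not ribosomal proteins. Without the kinases 10 of 84 remained, none of their 4 shared regions was 2-fold apart, and Rpl22 had 145 and 146 reads. Of the kinases, Rps6kb1, the S6 kinase of mTORC1 signalling, had 142 and 613 reads in coding exon 13 (log2 1.81, 1.54 to 2.08).

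Markers of the cells that could be in the sort were read at start sites. All 7 CD8+ T cell markers had a peak near a start in both lists, with coverage over background summing to 836 in vehicle and 811 in TAMo. Of 21 myeloid markers 7 had one in vehicle and 9 in TAMo, with sums of 279 and 394. Itgam, Csf1r and Adgre1 had one in TAMo only, and Fcgr1, with 18 reads, had one in vehicle only. Lyz2, Ly6c1, Ly6c2, Ly6g, S100a8, S100a9, Fcer1g, Tyrobp, C1qa, Mpo and Ccr2 had no peak called there in either list, which need not mean no coverage. Of 5 B cell markers 2 and 3 had one, with sums of 15.1 and 24.8. Exonic members lay in 6 of the 21 myeloid genes, against 23.6% of all genes. Their 2 shared regions had a median log2 ratio of -0.05, and neither was 2-fold apart, beside 19.4% higher and 2.87% lower among all shared exonic regions. Ccr2, a chemokine receptor, had 226 and 415 reads in its first exon (log2 0.58, 0.34 to 0.82). Spi1, a myeloid and B cell transcription factor, had 35 and 27 in its last exon (log2 -0.67, -1.46 to 0.09). Csf1r (57 reads) and Adgre1 (42 reads), which mark macrophages, had internal-exon peaks in TAMo only. Cd14 had 166 reads in vehicle in its last exon, where a TAMo peak that is no exonic member overlapped it. The part of myeloid DNA in the TAMo values was not tested.

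Exonic windows were richer in G and C than exon sequence at large. The median GC content was 55.4% in vehicle and 53.5% in TAMo, against 47.5% over 505260 tiles of 101 bp from the same exon territory. In coding sequence it was 60.4% and 58.4%, against 52.5% of coding tiles, and in 3′ UTRs 52.5% and 51.5% against 43.6%. CpG pairs, the sites of DNA methylation, were missing from 15.5% of vehicle and 21.6% of TAMo windows and from 30.7% of tiles.

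Motif letters were searched on both strands, and a match is a description and not a shown binding site. The AP-1 motif TGANTCA was found in 11.9% of vehicle windows (10.8 to 13.0) and 15.3% of TAMo windows (14.3 to 16.4), against 2.51% of tiles. The CTCF consensus was found in 8.56% and 6.03%, against 0.258% of tiles. RUNX (TGTGGTT) stood at 5.41% and 5.08% against 2.02%, Sp1 (GGGCGG) at 9.08% and 6.69% against 2.08%, and the E-box CACGTG at 2.88% and 2.97% against 1.45%. ETS (CCGGAAGT) at 0.524% and 0.502% against 0.181%, and T-box (AGGTGTGA) at 0.844% and 0.732% against 0.385%, were rare in all 3. Tiles match the exon territory but not the GC content or the strength of the windows.

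AP-1 matches were commoner in 3′ UTRs, at 15.0% of vehicle and 18.3% of TAMo windows, than in coding sequence, at 7.15% and 9.80%. In tiles the 2 parts were closer, at 2.78% and 2.10%. Of windows with an AP-1 match, 52.7% in vehicle and 56.1% in TAMo had one centred within 20 bp of the summit. For CTCF the shares were 63.6% and 63.5%. For the other motifs they ran from 43.0% (RUNX) to 55.6% (ETS) in vehicle and from 37.5% (ETS) to 54.3% (T-box) in TAMo. A window of 101 bp keeps every match close to the summit, and the share that position alone would give was not tested.

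Members of 1 list only differed from shared members in these motifs. Of TAMo windows without a vehicle partner 17.5% held AP-1 (15.8 to 19.2) and 1.39% held CTCF, while of shared TAMo windows 13.9% (12.7 to 15.2) and 9.18% did. Of vehicle windows without a TAMo partner only 5.68% held AP-1 (3.96 to 8.09), against 12.9% of the shared ones (11.7 to 14.2). Median GC was 51.5% in windows called in TAMo only, and 55.4% in those called in vehicle only and in the shared windows of each list. At or above the median coverage 13.2% of vehicle and 16.5% of TAMo windows held AP-1, and below it 10.5% and 14.1%. For CTCF the shares were 10.8% and 7.75% at or above the median coverage, and 6.24% and 4.29% below it. The part of coverage in the contrasts between shared and unshared windows was not tested.

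**Figure D4:**
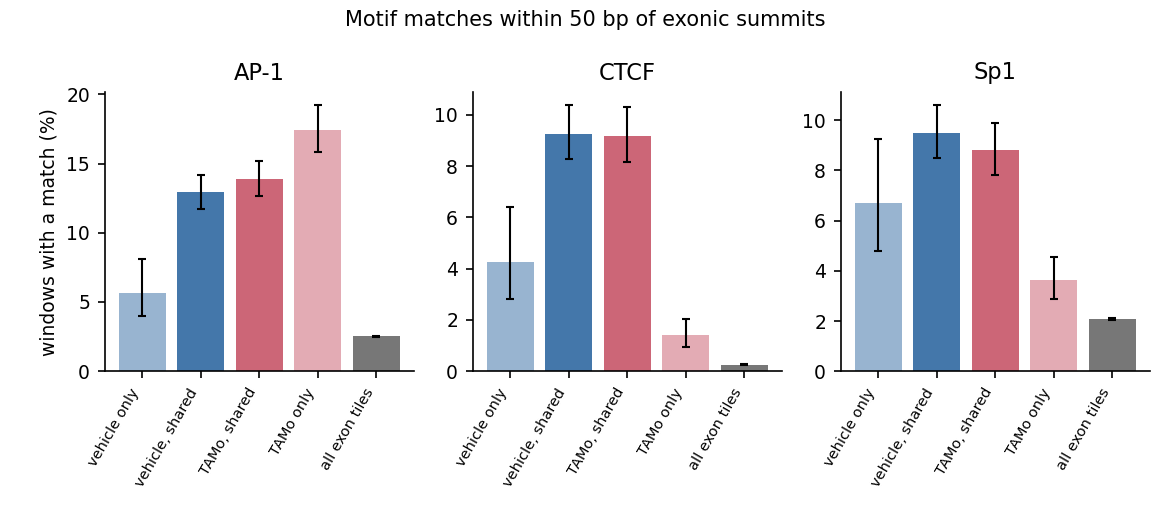
Share of 101 bp exonic windows with a match to AP-1, CTCF or Sp1 (vertical axes, percent, each panel with its own scale) for members of 1 list only, shared members of each list and all exon tiles. Error bars are 95% Wilson intervals for counting error; AP-1 is at 17.5% in TAMo-only windows and 5.68% in vehicle-only windows, and CTCF at 1.39% and 4.26%.

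The ratio of coverage also differed with these motifs. At 367 shared regions with an AP-1 match in the vehicle window the median log2 ratio was 0.56 and 34.9% were at least 2-fold higher in TAMo, while at 2325 without one the median was 0.24 and 17.4% were. With a CTCF match (268 regions) the median was 0.08 and 4.85% were 2-fold higher, against 0.28 and 21.4% without. A RUNX match went with 0.47 against 0.26, and an Sp1 match with 0.09 against 0.28. Read the other way, 24.1% of regions 2-fold or more higher in TAMo held AP-1 (20.6 to 27.9) and 2.44% held CTCF, against 10.9% (9.64 to 12.3) and 12.1% of regions within 2-fold. Of the 79 regions 2-fold or more lower, 15.2% held AP-1 (8.91 to 24.7), an interval that meets both of those shares.

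GC content moved with the ratio too. With windows in 5 equal classes of GC, from the lowest to the highest, the median fell from 0.42 through 0.38, 0.28 and 0.24 to 0.11, and the share at least 2-fold higher from 28.8% to 6.68%. Within coding sequence that share was 30.2% in the lowest and 6.70% in the highest class, and within 3′ UTRs 28.9% and 6.82%. The median at regions with AP-1 was above the median without in each class of GC, at 0.51 against 0.41 in the lowest and 0.64 against 0.24 in the middle one. In the highest class only 10 regions held AP-1. With a CTCF match the median was below that without in each class, from 0.08 against 0.45 in the lowest to -0.12 against 0.13 in the highest.

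**Figure D5:**
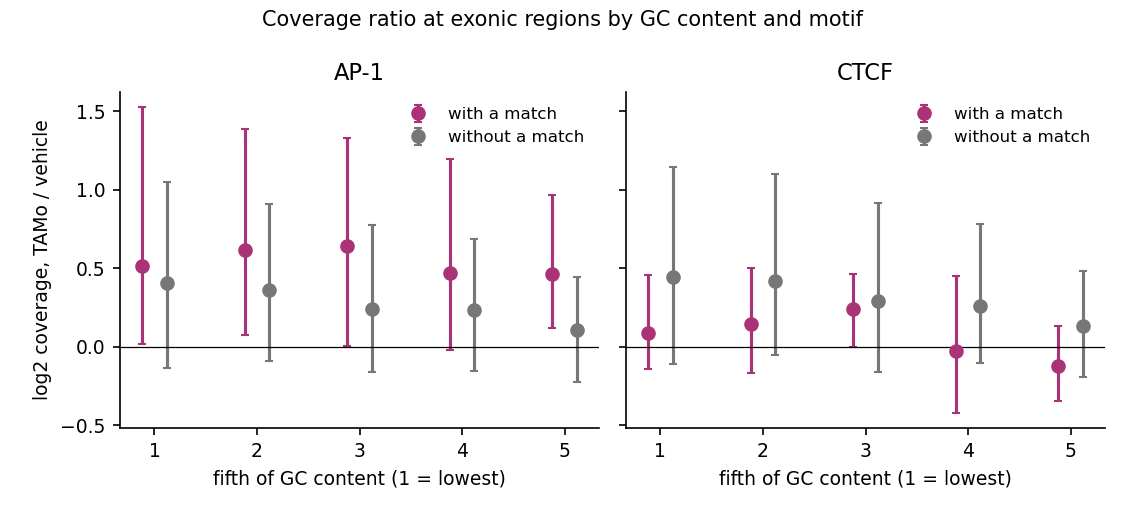
Log2 of TAMo over vehicle summit coverage (vertical axis) in 5 equal classes of window GC content (horizontal axis), for exonic regions with and without an AP-1 match (left) or a CTCF match (right). Points are medians over regions and bars the quartiles; the points with AP-1 lie above and those with CTCF below their partners in all 5 classes, and the class with the most GC holds 10 regions with AP-1.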

How the data were processed

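Peaks were deposited as 1 list per library. Per the submitters' processing notes the tools were Trimmomatic 0.36, Bowtie2 and MACS2 on mm10; for settings, read shifting and duplicate removal: not given in the sources used here. A deposited row gives a peak's interval and summit with a score, a fold enrichment (a ratio over local background) and a −log10 p and −log10 q, all the authors' values. Rows of 1 interval were joined and the summit with the highest −log10 q was kept.

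Coverage was recovered from the deposited fold, (coverage + 1)/(background + 1), and the Poisson −log10 p, as whole reads within 0.01; 30 vehicle and 48 TAMo rows gave none (1 and 2 members). The recovery of coverage, the interval of a ratio and the assignment of exon classes were tested on simulated data. Each library was scaled to its modal background. Alternatives covered the window at starts, the q-value, the exon class, overlap, list length, centring and least reads. Exons and starts came from the GENCODE M21 basic annotation; among transcripts whose exon held the summit, the longest protein-coding one set the exon class. Overlap meant at least 1 bp. Shares carry Wilson and ratios exact binomial 95% intervals. Python 3.11.15, numpy 2.4.6, pandas 2.3.3 and scipy 1.17.1 were used.

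The members and gene lists were chosen with earlier results of these data known. Genes were named by rule: the 4 strongest members per exon class and list, the 6 genes with most regions, the 6 largest and 6 smallest ratios at 50 or more reads, the 6 strongest members per list without a partner, and up to 4 genes per gene list. The genes of the printed windows, and Spi1, Zfp52, Gm15564 and other genes with shared runs, and single members of marker lists, were chosen after values were seen. The windows planned were longer and were to be set beside introns; as transcript sequences and no genome were used here, 101 bp windows inside exons were set beside exon tiles instead. A few members that the rule would name are not reported here.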

Additional observations from a re-analysis of the deposited data

How the results depend on the processing

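Of 31 alternative values, 25 stayed within wide tolerances (1.5 times for a count, the 95% interval for a share, 0.44 for the median log2 ratio, the counting error of 1 region), 5 moved further and 1 turned a sign. The 25 include drops from 4463 to 3118 vehicle members and 6139 to 4747 TAMo members at a −log10 q of at least 10, to 4183 TAMo members in the shortened list, and from 0.26 to 0.15 in the median log2 ratio at 50 reads. Cutting the TAMo list to the length of the vehicle list lowered the share of vehicle members with a TAMo partner from 85.3% to 73.4%, and keeping only TAMo peaks with a −log10 q of at least 10 raised the share of TAMo members with a vehicle partner from 59.7% to 69.7%. Centring on the median of all shared regions turned the median log2 ratio from 0.26 to -0.0215, moved the number at least 2-fold lower from 96 to 201 and the number higher from 649 to 457. With at least 50 reads in both libraries 271 of 2086 regions were higher (13.0%, against 19.4%) and 55 lower. The cause of these differences was not tested. The comprehensive annotation and summits within 100 bp were alternatives chosen after seeing the data. No paired analysis was possible because each group has 1 library. The modal backgrounds of 4.71 and 5.80 reads limit what weak peaks can show.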
